A study of Ostreococcus tauri with 30 samples.

Results

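Cells of Ostreococcus tauri RCC745 that had been exposed to the higher of 2 added copper levels for 4 h were set against cells exposed to the lower level for the same 4 h. Ostreococcus tauri is a marine green picoalga, a single-celled relative of land plants with 1 chloroplast and 1 mitochondrion per cell. The comparison uses 6 of the 30 libraries of the study, 3 at higher copper and 3 at lower copper, chosen by the copper level and time in the names of the samples. The other 24 libraries are controls without added copper at 0, 1, 4 and 12 h and both copper levels at 1 and 12 h. All cultures shared the strain, aerated flasks, artificial seawater with Keller nutrients and a cycle of 12 h light and 12 h dark. The sample names put the copper levels at 250 and 25 µM, whereas the treatment protocol names final concentrations of 2 and 0.4 µM. The rank of the groups is the same by either account, and the names higher and lower copper are used without a dose. No control enters the comparison or the spread used in its main test, and control values are given beside it. The filter on low gene counts and the scaling of libraries used all 30 libraries. Nothing in the labels says that the 3 libraries of a group came from separate cultures, and each p-value is relative to the spread of these libraries, part or all of which may come from the bench rather than from the cells.

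Copper is a cofactor of plastocyanin, which carries electrons between the cytochrome b6f complex and photosystem I, of cytochrome c oxidase, the last complex of the respiratory chain, and of some superoxide dismutases. In excess it is toxic: it takes part in reactions that make oxygen radicals, binds thiols and displaces other metals from proteins. Algal cells bind surplus copper with thiol compounds made from glutathione, and tocopherol, ascorbate and carotenoids scavenge radicals in their membranes and chloroplasts.

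Gene counts in the 6 libraries summed to 3844216, 4338891 and 5129440 at higher copper and to 3992005, 5042408 and 3425807 at lower copper. Counts of KEGG modules, which are named sets of gene families of 1 pathway or complex, summed to 10.8 to 12.2 times these totals, because a family can belong to several modules. Modules therefore share reads with one another. In 2 control libraries, replicate 3 of 4 h and replicate 3 of 1 h, the ratio of module to gene counts was 20.0 and 6.06, outside the range of 9.89 to 12.2 that the other 28 libraries span. With the module totals of these 2 libraries exchanged, the ratios would be 11.03 and 11.01. Exchanged gene totals would give the same 2 ratios. Either the module values or the gene values printed for the third 4 h control may therefore be those of the third 1 h control. Which of them, if any, were exchanged was not tested. On the first principal component of the 18 copper libraries, which held 50.8% of the variance of log2 gene levels, replicates of 1 group lay far apart. The 3 higher copper libraries scored −0.97, 19.6 and 38.0, and the 3 lower copper libraries −21.4, −20.7 and 11.8. The third lower copper library thus lay between the first and second higher copper libraries, and scores within a group ranged more widely than the group means lay apart.

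At 4 h the levels of photorespiration, of isoleucine and quinone synthesis and of a C4 acid cycle were higher at the higher copper level, by 0.34 to 0.59 on the log2 scale. The levels of tocopherol and pantothenate synthesis, of the GINS replication complex and of acylglycerol degradation were lower, by 0.43 to 0.95. None of these differences passed the test over the whole table. With edgeR's quasi-likelihood test and Benjamini-Hochberg adjustment, 0 of 7190 genes and 0 of 236 modules had an adjusted p under 0.05 (0% of either table), and the smallest adjusted p was 0.092 for genes and 0.229 for modules. At an unadjusted p under 0.05, 368 genes were higher (5.12% of those tested) and 511 were lower (7.11%). For modules the same counts were 16 higher (6.78%) and 15 lower (6.36%). When module counts were scaled by the library sizes of the gene table instead, the split of modules was 12 higher and 19 lower. Without higher copper replicate 3 the counts at an unadjusted p fell to 352 genes and 14 modules in all, and without lower copper replicate 1 to 399 and 14. Without lower copper replicate 2 the gene count was 466, against 879 genes and 31 modules with all libraries. Counts also rose: the highest with 1 of the 6 libraries left out were 1223 genes and 38 modules.

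The count of calls differed between fits that used other libraries or another tool. With all 30 libraries in the fit, controls included, 12 genes (0.167%), of which 5 were higher (0.0695%) and 7 lower (0.0974%), and 2 modules (0.847%) passed. DESeq2 called 51 genes (22 higher and 29 lower) and 0 modules on the same 18 libraries. In the authors' deposited table for this comparison, 248 of 7564 genes (3.28%) have an adjusted p under 0.05, of which 81 are higher (1.07%) and 167 lower (2.21%). All 248 genes of the authors' deposited table were among the genes tested here and had the same direction, and 224 of them had an unadjusted p under 0.05. The difference behind each of these counts is between the same 6 libraries, so the counts are not independent of one another. The fits of 30 and of 18 libraries took the spread from other libraries as well.

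The median log2 difference was 0.011 over genes and 0.022 over modules, with a median standard error of 0.24 and 0.19. These medians are of signed values, in which rises and falls cancel, and do not give the size of a typical difference. At least 2-fold higher levels were fitted for 311 genes (4.33%) and at least 2-fold lower levels for 33 genes (0.459%). For modules these counts were 5 (2.12%) and 2 (0.847%). In 735 genes (10.2%) all 3 higher copper libraries lay above all 3 lower copper libraries, and in 826 genes (11.5%) all 3 lay below. For modules these counts were 31 (13.1%) and 30 (12.7%). Module levels are given as CPM, module counts scaled to a common total by edgeR's TMM library sizes, each log2 difference as higher minus lower copper with its standard error, and every adjusted p is edgeR's over all 236 modules. Each list of modules is represented by up to 4 modules of high level, and other modules and genes are named because of their values, that is after these were seen.

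**Figure D1:**
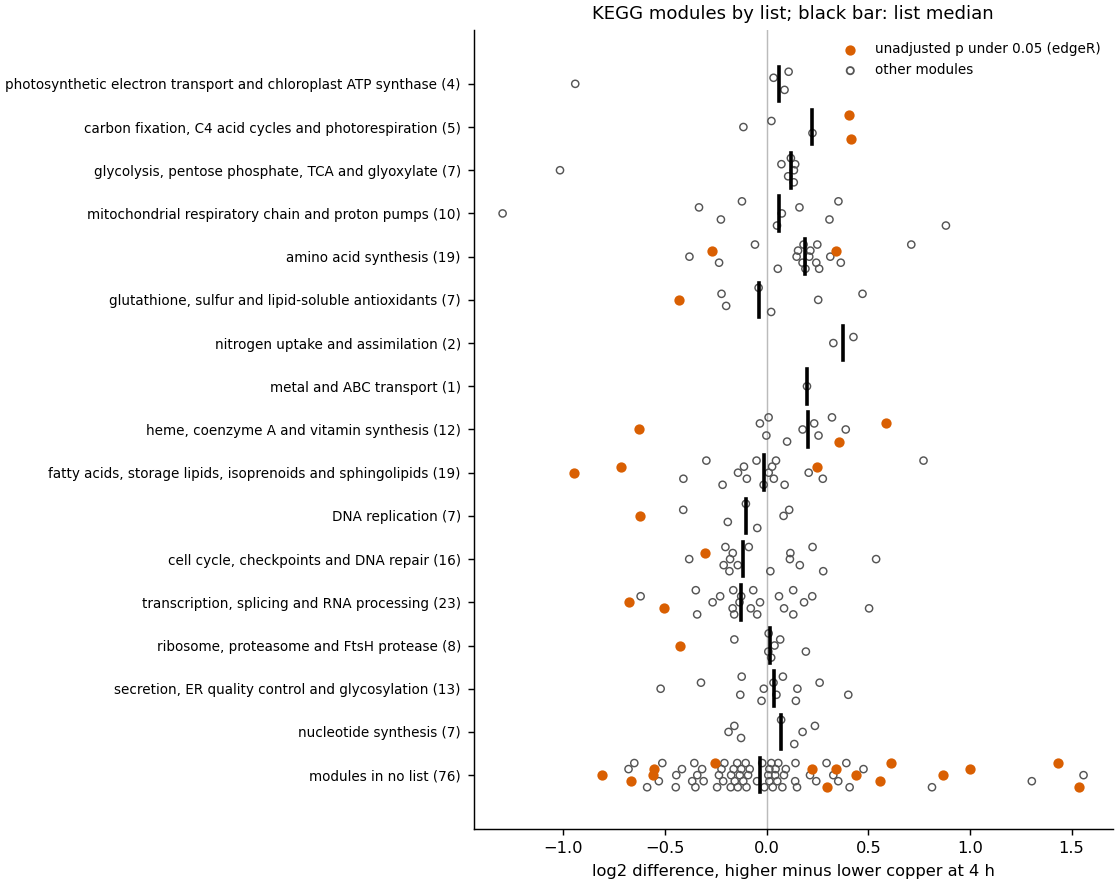
Log2 difference of higher minus lower copper at 4 h (x axis) for each of the 236 modules, arranged by the 16 lists and the 76 modules in no list (y axis), with orange points for an unadjusted p under 0.05 and black bars for list medians. Most points lie within 0.5 of 0, carbon fixation has a median of 0.23 and RNA processing one of −0.13.

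Carbon fixation, the C4 acid cycles and photorespiration held 5 modules, of which 2 were higher at an unadjusted p under 0.05 and 0 lower, with a median log2 difference of 0.23. Photorespiration (M00532) recycles the phosphoglycolate that Rubisco makes when it takes up oxygen in place of carbon dioxide. It stood at 41699.8, 43920.3 and 46314 CPM at higher copper and at 30268, 33262 and 35587 CPM at lower copper. Each of the 3 higher copper libraries lay above each lower copper library, a log2 difference of 0.41 ± 0.10 (95% interval 0.19 to 0.63, adjusted p = 0.229). The 4 h controls had 26197, 25475 and 30416 CPM, below every copper library but 1, lower copper replicate 1, which lay just under the third control.

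The C4 acid cycle of the NAD-malic enzyme type (M00171) holds the enzymes that interconvert malate, oxaloacetate, aspartate and pyruvate. It stood at 5469, 5289 and 5682 CPM at higher copper and at 4059.9, 4011 and 4349.5 CPM at lower copper, with no overlap and a difference of 0.40 ± 0.11 (adjusted p = 0.229). Its controls had 4030.3, 3613 and 4000.5 CPM, the highest of them just above the lowest lower copper library. In the fit of all 30 libraries both M00532 and M00171 passed, with an adjusted p of 0.0405 and 0.0405. The name of the C4 module comes from land plants, and its members also serve the citrate cycle and amino acid metabolism.

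The Calvin cycle (M00165), which fixes carbon dioxide through Rubisco, had 149874, 183279 and 145182 CPM at higher copper and 131969, 138256 and 139025 CPM at lower copper. The groups did not overlap, but 1 higher copper library stood well above the other two, and the difference of 0.23 ± 0.23 had an adjusted p of 0.634. The CAM module for the light phase (M00169) differed by −0.11 ± 0.078 and the NADP-malic enzyme type of the C4 cycle (M00172) by 0.023 ± 0.23, with overlapping groups in both.

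**Figure D2:**
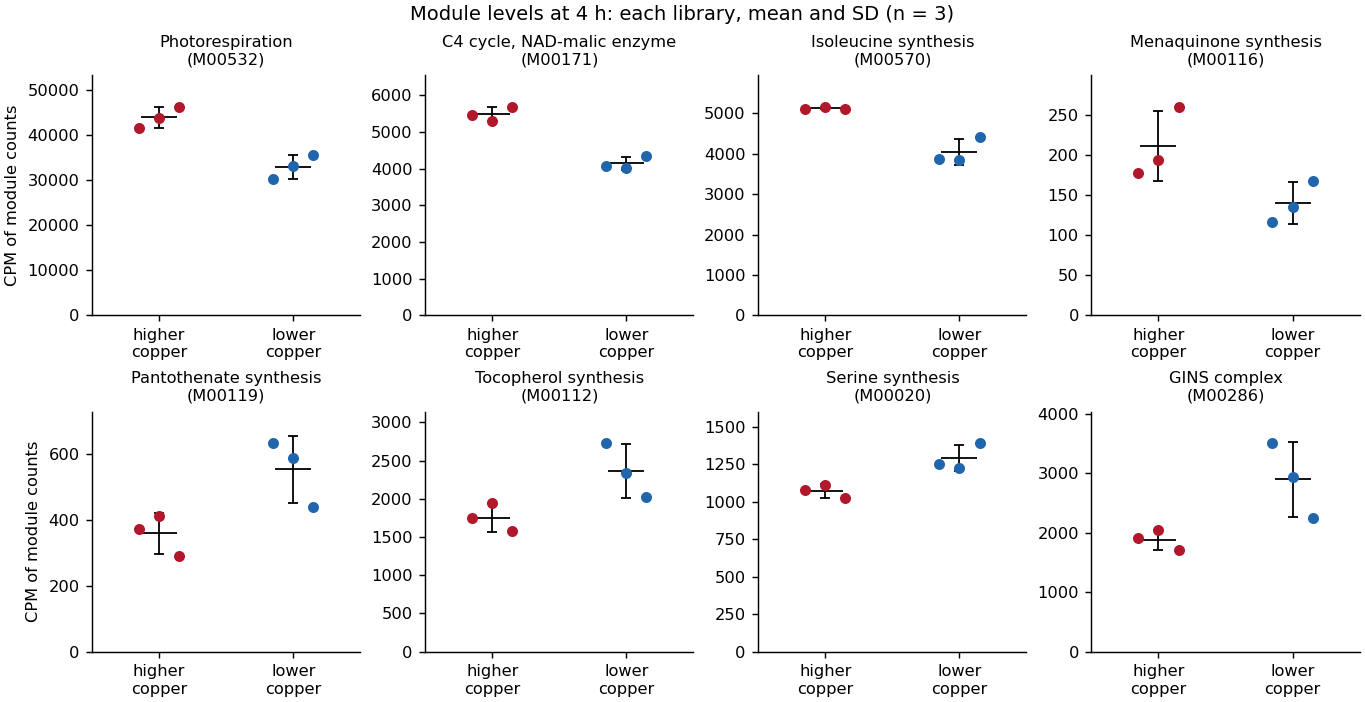
Module level (y axis, CPM of module counts, linear and starting at 0) in each of the 3 higher and 3 lower copper libraries at 4 h for 8 modules, with the mean and SD beside the points. Photorespiration, the C4 acid cycle, isoleucine and menaquinone lie higher at higher copper, pantothenate, tocopherol, serine and GINS lie lower, and the groups do not overlap in any of the 8.

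The light reactions, which take up 4 modules, showed no difference past the spread: 0 had an unadjusted p under 0.05 and the median was 0.061. Photosystem I (M00163), which receives its electrons from plastocyanin, had 6798, 5625 and 6017 CPM at higher copper and 5987, 5592 and 6436 CPM at lower copper, a difference of 0.034 ± 0.13 with a 95% interval of −0.24 to 0.31. Cytochrome b6f (M00162), which passes electrons to plastocyanin, differed by 0.088 ± 0.21. The module of the bacterial and chloroplast ATP synthase (M00157) had 6322, 6154 and 6176 CPM at higher copper and 5821, 5569.7 and 5919 CPM at lower copper, with every higher copper library above every lower one, although the difference was only 0.11 ± 0.082.

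Photosystem II (M00161), the water-splitting complex, gave the widest interval of these 4. It stood at 354, 800.5 and 197 CPM at higher copper and at 1297, 672 and 626 CPM at lower copper. The libraries of each group spread over more than the distance between the groups, and the difference of −0.94 ± 0.64 had an interval of −2.30 to 0.42. It was −1.65 without higher copper replicate 2 and −0.53 without lower copper replicate 1. Many subunits of this complex are encoded in the chloroplast genome. The gene that RefSeq names psbL, after a small subunit of photosystem II, is OT_ostta07g02410, which had under 2 CPM of gene counts in each library, with 0.27, 0.7 and 0.36 CPM at higher copper and 1.34, 0.66 and 1.40 CPM at lower copper.

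Of 10 modules of the respiratory chain and proton pumps, 0 had an unadjusted p under 0.05. Cytochrome c oxidase (M00154), whose catalytic core holds copper, had 1033, 1235 and 1143 CPM at higher copper and 1134, 1039 and 1121 CPM at lower copper. The groups overlapped, and the difference of 0.051 ± 0.19 had an interval of −0.36 to 0.46. The libraries were made from polyadenylated RNA, and the counts do not say which subunits of this or another chloroplast or mitochondrial complex they cover. Whether the subunits that hold copper are among them is not known here. The vacuolar-type proton pump (M00160), which acidifies vacuoles, had 5196, 5264 and 4498 CPM at higher copper and 7045, 6444 and 5355 CPM at lower copper. All 3 values at higher copper lay below all 3 at lower copper, at −0.33 ± 0.18 with an adjusted p of 0.397. Iron-sulfur and flavoprotein subunits of NADH dehydrogenase (M00143) also lay below without overlap, by −0.12 ± 0.072, and the mitochondrial ATP synthase (M00158) overlapped at −0.23 ± 0.19. The cytochrome bc1 complex (M00152), which hands electrons to cytochrome c, had the highest positive difference of the list at 0.88 ± 0.43, from 100.1 to 252 CPM at higher copper and 78.7 to 113 CPM at lower copper. The module named for mitochondrial NADH:ubiquinone oxidoreductase (M00142), the entry of electrons into the chain, had the lowest difference of the list and of all 236 modules at −1.30 ± 0.81, from a low level of 5.41, 21.6 and 1.94 CPM at higher copper and 29.6, 20.1 and 21.5 CPM at lower copper. The groups overlapped in both modules. Without higher copper replicate 2 the value of M00142 was −2.69, and without higher copper replicate 3 that of M00152 was 0.53 and that of M00142 −0.81.

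Of 7 modules of glycolysis, the pentose phosphate pathway, the citrate cycle and the glyoxylate cycle, 6 had a positive difference with a median of 0.12, and 0 had an unadjusted p under 0.05. Over all modules 127 of 236 were positive. The pentose phosphate pathway (M00004) differed by 0.13 ± 0.20, glycolysis (M00001) by 0.11 ± 0.10, the citrate cycle (M00009) by 0.12 ± 0.11 and gluconeogenesis (M00003) by 0.14 ± 0.10, with overlapping groups in all 4. The glyoxylate cycle (M00012), which bypasses the carbon-losing steps of the citrate cycle, had a low level, with 2.67, 12.7 and 4.07 CPM at higher copper and 15.2, 6.98 and 17.3 CPM at lower copper, and differed by −1.02 ± 0.63. That value was −1.96 without higher copper replicate 2 and −0.65 without higher copper replicate 1.

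Of 19 modules of amino acid synthesis, 1 was higher and 1 lower at an unadjusted p under 0.05, no larger a share than over all modules (6.78% and 6.36%). The difference was positive in 15 of the 19, against 127 of all 236 modules, with a median of 0.19. The module for isoleucine from threonine (M00570), a branched-chain pathway of the chloroplast, had 5113, 5157 and 5112 CPM at higher copper and 3878, 3848 and 4409 CPM at lower copper. The higher copper libraries were nearly equal and all above the lower copper libraries, at 0.34 ± 0.10 with an interval of 0.13 to 0.55 and an adjusted p of 0.229. The 4 h controls, at 2825, 2822 and 3831 CPM, lay below every copper library.

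Serine synthesis through phosphoglycerate (M00020) went the other way. It had 1079, 1114 and 1022 CPM at higher copper and 1255, 1226 and 1393 CPM at lower copper, again without overlap, a difference of −0.27 ± 0.09 (interval −0.46 to −0.078, adjusted p = 0.235). Photorespiration also makes serine, from glycine, and the 2 routes to this amino acid had differences of opposite sign at 4 h, a contrast that was not tested. The serine pathway of formaldehyde assimilation (M00346), which shares its serine and glycine enzymes with photorespiration, had 19069.6, 19908 and 19489 CPM at higher copper and 15927, 17270.1 and 16925 CPM at lower copper and differed by 0.22 ± 0.075.

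Other amino acid modules lay apart without passing an unadjusted p of 0.05. Methionine synthesis (M00017), which leads from aspartate through homoserine to methionine, had 13088, 11262 and 12219 CPM at higher copper and 10288, 10614 and 11146 CPM at lower copper, a difference of 0.19 ± 0.091. Ornithine synthesis (M00028) at 0.21 ± 0.15, the urea cycle (M00029) at 0.24 ± 0.12 and tyrosine synthesis from chorismate (M00025) at 0.18 ± 0.10 were likewise above in each library. Histidine synthesis (M00026), whose product binds copper, had 4708, 4951 and 4895 CPM at higher copper and 6297, 5586 and 5237 CPM at lower copper, all 3 below, at −0.23 ± 0.12. Proline synthesis (M00015), which makes an osmolyte of stressed algae and plants, had the highest positive value of the list at 0.71 ± 0.42, but its libraries of 536 to 839 CPM at higher copper and 299 to 547 CPM at lower copper overlapped. Synthesis of cysteine from serine (M00021), the branch that feeds glutathione, differed by 0.15 ± 0.17 and valine with isoleucine from pyruvate (M00019) by 0.055 ± 0.14.

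The antioxidant list of 7 modules had 1 module lower and 0 higher at an unadjusted p under 0.05, with a median of −0.040. Tocopherol synthesis (M00112) makes the lipid-soluble radical scavenger of thylakoids. It stood at 1745, 1944 and 1572 CPM at higher copper and at 2732, 2336 and 2025 CPM at lower copper. The groups did not overlap, at −0.43 ± 0.15 (interval −0.76 to −0.10, adjusted p = 0.235), and the controls of 2341, 2275 and 2747 CPM lay within the range of the lower copper libraries but for the third, just above it.

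Glutathione synthesis (M00118), the source of the main soluble thiol, had 699.9, 694 and 702 CPM at higher copper and 835, 734 and 838 CPM at lower copper. The 3 higher copper values were almost the same and lay below all 3 lower copper values, yet the fitted difference of −0.20 ± 0.19 had an adjusted p of 0.634. The 4 h controls had 1315, 1168 and 1036 CPM, above every copper library. The other members overlapped: ascorbate synthesis of the plant type (M00114) differed by −0.22 ± 0.14, beta-carotene synthesis (M00097) by −0.04 ± 0.11, abscisic acid synthesis from beta-carotene (M00372) by 0.022 ± 0.10 and assimilatory sulfate reduction (M00176), which provides the sulfide for cysteine, by 0.25 ± 0.19. Ascorbate synthesis of the animal type (M00129), with 18.6, 16.95 and 37.04 CPM at higher copper and 18.4, 13.02 and 20.9 CPM at lower copper, had the highest value of the list at 0.47 ± 0.54, and 0.025 without higher copper replicate 3.

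Cofactor synthesis, covering heme, coenzyme A, quinones and vitamins, had 2 modules higher and 1 lower at an unadjusted p under 0.05 among 12, with a median of 0.21. Menaquinone synthesis (M00116), whose enzymes make phylloquinone of photosystem I in green algae, had 177, 194 and 259.9 CPM at higher copper and 117, 136 and 168 CPM at lower copper. The groups did not overlap, at 0.59 ± 0.18 (interval 0.21 to 0.96, adjusted p = 0.229). Ubiquinone synthesis of eukaryotes (M00128), which makes the electron carrier of mitochondria, had 269.6, 265 and 283 CPM at higher copper and 211, 200.4 and 227 CPM at lower copper, also without overlap, at 0.36 ± 0.17.

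Pantothenate synthesis (M00119), the route to the vitamin part of coenzyme A, had the lowest value of the list. It stood at 373, 412 and 291 CPM at higher copper and at 634, 588 and 438 CPM at lower copper. All 3 higher copper libraries lay below, at −0.63 ± 0.20 (interval −1.05 to −0.20, adjusted p = 0.235), and the controls of 629, 601 and 613 CPM were near the 2 upper values at lower copper. The steps from pantothenate to coenzyme A (M00120), by contrast in value, had 1256 to 1312 CPM at higher copper and 1245 to 1302 CPM at lower copper. Heme synthesis (M00121), which also provides the precursor of chlorophyll, differed by 0.23 ± 0.15 with overlap.

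The table holds 1 module of metal import, the iron complex transport system (M00240), which overlapped with 223, 196 and 214 CPM at higher copper and 209, 144 and 199 CPM at lower copper, at 0.20 ± 0.17. No module of the table is named for copper. Nitrate assimilation was variable between libraries of a group: the reduction of nitrate to ammonia (M00531) had 17807, 7213 and 19559.6 CPM at higher copper and 7589.8, 7676 and 17901 CPM at lower copper. In each group some libraries were more than 2-fold apart, and the difference of 0.43 ± 0.78 had an interval of −1.22 to 2.08. The second nitrate module (M00615), which shares these genes, differed by 0.33 ± 0.75.

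Among 19 modules of lipids, 1 was higher and 2 were lower at an unadjusted p under 0.05, and the median was −0.015. Acylglycerol degradation (M00098), in which lipases free fatty acids, had 13.2, 16.2 and 18.8 CPM at higher copper and 37.1, 27.2 and 28.7 CPM at lower copper. All 3 higher copper libraries lay below, at −0.95 ± 0.33 (interval −1.65 to −0.24, adjusted p = 0.235), at a low level. Triacylglycerol synthesis (M00089), which stores fatty acids, had 3135, 2747 and 2655 CPM at higher copper and 3654, 3609 and 3224 CPM at lower copper and lay below as well, at −0.30 ± 0.16. Sphingosine degradation (M00100) had 1282, 1447 and 1092 CPM at higher copper and 2377, 2269 and 1631 CPM at lower copper, at −0.72 ± 0.30. The module in which beta-oxidation activates fatty acids to acyl-CoA (M00086) differed by 0.28 ± 0.15, the start of fatty acid synthesis (M00082) by 0.088 ± 0.17, its elongation (M00083) by 0.026 ± 0.11 and the plastid route to isoprenoids (M00096) by −0.10 ± 0.13, with overlap in all 4. Phosphatidylethanolamine synthesis (M00092), the third lipid module under an unadjusted p of 0.05, was at 0.25 ± 0.12.

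DNA replication, with 7 modules, had 1 module lower and 0 higher at an unadjusted p under 0.05 and a median of −0.10. GINS (M00286), which joins MCM and CDC45 in the helicase at the replication fork, had 1905, 2041 and 1701 CPM at higher copper and 3511, 2940.1 and 2251 CPM at lower copper. The groups did not overlap, at −0.62 ± 0.22 (interval −1.09 to −0.16, adjusted p = 0.235), and the third lower copper library was the closest to the higher copper ones. The MCM complex (M00285), the motor of that helicase, had 6624, 6376 and 5204 CPM at higher copper and 9233, 8686 and 6279.6 CPM at lower copper and overlapped, at −0.41 ± 0.25. Replication protein A (M00288) and DNA polymerase epsilon (M00263) differed by −0.047 ± 0.094 and 0.083 ± 0.16.

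The list of the cell cycle, its checkpoints and DNA repair had 1 module lower and 0 higher at an unadjusted p under 0.05 among 16, the CUL3 ubiquitin ligase (M00384) at −0.30 ± 0.12, with overlapping groups. The G1/S transition module (M00692), which covers the entry into replication, had 829.8, 893 and 1063 CPM at higher copper and 750.3, 841 and 792 CPM at lower copper at 4 h and overlapped, at 0.23 ± 0.12. The G2/M module (M00693) differed by −0.14 ± 0.18, the APC/C ligase (M00389) by 0.12 ± 0.11 and the checkpoint induced by DNA damage (M00691) by 0.16 ± 0.22.

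Of 23 modules of transcription and RNA processing, 2 were lower and 0 higher at an unadjusted p under 0.05, a share of lower modules near the 6.36% over all modules. The difference was negative in 16 of the 23, against 109 of all 236 modules, with a median of −0.13. The H/ACA complex (M00425), which makes pseudouridine in ribosomal RNA, had 3443, 3969.6 and 2683 CPM at higher copper and 6622, 5656 and 3872 CPM at lower copper. The third lower copper library fell among the higher copper libraries, and the difference was −0.68 ± 0.27 (adjusted p = 0.271). The U1 particle of the spliceosome (M00351), which recognises 5′ splice sites, had 286, 295 and 275 CPM at higher copper and 488, 398 and 329 CPM at lower copper without overlap, at −0.50 ± 0.21. RNA polymerase I (M00182), which transcribes ribosomal RNA, differed by −0.35 ± 0.19 and the eIF4F cap complex (M00428) by −0.34 ± 0.24, below in every library. The Prp19 complex of the spliceosome (M00353) lay above in every library, at 0.22 ± 0.11, and the cap binding complex (M00399) did so at 0.50 ± 0.27. The module of bacterial competence (M00429), at −0.033 ± 0.40, is counted in this list although its name does not belong there.

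Ribosomes and proteasomes, with 8 modules, had a median of 0.016. The eukaryotic ribosome module (M00177) had 62854 to 67742 CPM at higher copper and 60868 to 68540.5 CPM at lower copper, a difference of 0.0094 ± 0.17, and the 19S cap of the proteasome (M00341) differed by 0.0079 ± 0.086. The module called immunoproteasome (M00337), a name that comes from animals and here stands for related core subunits, was the 1 member lower at an unadjusted p under 0.05. It had 6487, 6883 and 5842 CPM at higher copper and 9911, 8844 and 7110.5 CPM at lower copper, without overlap, at −0.43 ± 0.18. The 20S core module (M00340) differed by −0.16 ± 0.14 and the FtsH protease (M00742), which in chloroplasts removes damaged photosystem II protein, by 0.022 ± 0.11. Secretion and glycosylation (13 modules, median 0.033) and nucleotide synthesis (7 modules, median 0.071) had 0 modules with an unadjusted p under 0.05. In these lists N-glycan precursor synthesis (M00055) had the lowest value at −0.52 ± 0.27 and the TRAP complex (M00402) the highest at 0.40 ± 0.32.

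Genes could be named only by locus tag, since 7626 of 7627 identifiers matched RefSeq's table of the organism and only 2 of these carried a symbol other than the tag. No gene met the rule for named genes in the fit of the 18 copper libraries. All 12 genes that passed in the fit of 30 libraries had a mean of at least 2 CPM and no overlap between the groups, and the 2 with the largest difference in each direction are given with their CPM of gene counts. These 4 genes were chosen by the same contrast, so their values are a description.

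OT_ostta18g01100 on chromosome 18 had 44.3, 40.1 and 47.1 CPM at higher copper and 13.1, 11.9 and 21.2 CPM at lower copper. Every higher copper library lay near or above 2-fold the highest lower copper library, at 1.52 ± 0.28 with an interval of 0.93 to 2.11 and an adjusted p of 0.0920 over 7190 genes. The 4 h controls had 7.86, 8.28 and 10.1 CPM, below both copper groups. OT_ostta07g00240 on chromosome 7 had 22.6, 14.3 and 21.3 CPM at higher copper and 4.02, 5.95 and 9.77 CPM at lower copper. It was higher in each library as well, at 1.56 ± 0.35 (interval 0.83 to 2.29, adjusted p = 0.171), and its controls had 4.77, 3.76 and 5.59 CPM, close to the 2 lowest values at lower copper.

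OT_ostta20g00035 on chromosome 20 had 268, 251 and 249.7 CPM at higher copper and 456, 457 and 416 CPM at lower copper. Its replicates were tight and far apart between the groups, at −0.79 ± 0.15 (interval −1.10 to −0.48, adjusted p = 0.0920), and the controls, at 458, 505 and 525 CPM, lay above every copper library. OT_ostta08g01870 on chromosome 8 had 3.71, 5.39 and 5.87 CPM at higher copper and 10.98, 12.1 and 9.21 CPM at lower copper, each higher copper library below each lower one, at −1.09 ± 0.26 (adjusted p = 0.203). In the authors' deposited table OT_ostta18g01100 has a log2 difference of 1.24 ± 0.21, OT_ostta07g00240 1.10 ± 0.25 and OT_ostta20g00035 −0.74 ± 0.13, with adjusted p of 2.3e-05, 0.0037 and 3.7e-05. OT_ostta08g01870 has −0.75 ± 0.25 in the authors' deposited table and an adjusted p of 0.0676, over the threshold. The other symbol in RefSeq's table, that of a lariat debranching enzyme that opens spliced introns, belongs to OT_ostta11g02450, which had 19.6, 22.7 and 21.7 CPM at higher copper and 27.6, 31.5 and 24.00 CPM at lower copper, below in every library but at −0.38 ± 0.22 with an adjusted p of 0.479.

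By the chromosome number in the locus tags, genes with lower levels took a larger share of 2 chromosomes than of the whole table. Chromosomes 2 and 19 are known as the outlier chromosomes of this genus, with a lower GC content than the others, chromosome 2 being the candidate mating type chromosome and chromosome 19 one linked in Ostreococcus tauri to virus resistance. Of 55 genes tested on chromosome 19, 44 had a negative difference, with a median of −0.49, and 13 (23.6%) were lower and 0 higher at an unadjusted p under 0.05. Of 512 genes on chromosome 2, 334 were negative, with a median of −0.19, and 113 (22.1%) were lower and 18 (3.52%) higher. These shares stand against 7.11% lower and 5.12% higher over all genes. Chromosome 20, with 85 genes, lay the other way, with 62 positive genes and a median of 0.27, and 8 genes (9.41%) higher against 3 (3.53%) lower. Medians of the other 17 chromosomes ranged from −0.045 to 0.11. When each of the 6 libraries was left out in turn, the median stayed between −0.67 and −0.37 on chromosome 19, between −0.25 and −0.15 on chromosome 2 and between 0.20 and 0.37 on chromosome 20. The counts of lower genes depended more on single libraries: without higher copper replicate 3 they were 3 on chromosome 19 and 32 on chromosome 2, without lower copper replicate 1 they were 3 and 36, without lower copper replicate 2 they were 5 and 52, and without lower copper replicate 3 they were 22 and 158. The 8 higher genes of chromosome 20 became 1 without higher copper replicate 3, 2 without lower copper replicate 1 and 1 without lower copper replicate 2. Chromosome 19 had 8 lower genes without higher copper replicate 1, and chromosome 20 had 4 higher genes without higher copper replicate 2.

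The same pattern shows in the share of all gene counts that falls on a chromosome. Chromosome 19 held 0.790%, 0.817% and 0.698% of the counts at higher copper and 1.17%, 1.08% and 0.847% at lower copper. Chromosome 2 held 9.91%, 9.77% and 9.11% at higher copper and 12.5%, 11.8% and 10.4% at lower copper. Every higher copper library lay below every lower copper library in both, and lower copper replicate 3 was the closest. The 4 h controls held 0.928%, 0.926% and 0.940% on chromosome 19 and 10.7%, 10.6% and 10.95% on chromosome 2, between the 2 copper groups apart from the third lower copper library. The third of these controls is 1 of the 2 libraries whose gene or module values may be exchanged. The other, the third 1 h control, held 1.08% on chromosome 19 and 11.8% on chromosome 2, level with the second lower copper library.

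These shares also moved with the first principal component, across groups and times. The component was computed from the same gene counts, those of both chromosomes included, so part of this is built in. In the 5 copper libraries with the lowest scores, −56.0 to −20.7, chromosome 19 held 1.08% to 1.19% and chromosome 2 held 11.8% to 12.98% of the counts. In the other 13 libraries, with scores of −12.0 to 38.0, chromosome 19 held 0.612% to 1.02% and chromosome 2 held 8.78% to 11.3%. Of those 5 libraries 2 are the first and second lower copper libraries of 4 h. The others are lower copper replicate 1 of 12 h, lower copper replicate 2 of 1 h and higher copper replicate 1 of 1 h. The part of this component in the differences between higher and lower copper was not tested. Another component, the first of the deviations of the 18 libraries from their group means, was taken as a covariate in a fit in which 1341 genes and 58 modules passed. That covariate was computed from the same counts, so its p-values are too small.

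**Figure D3:**
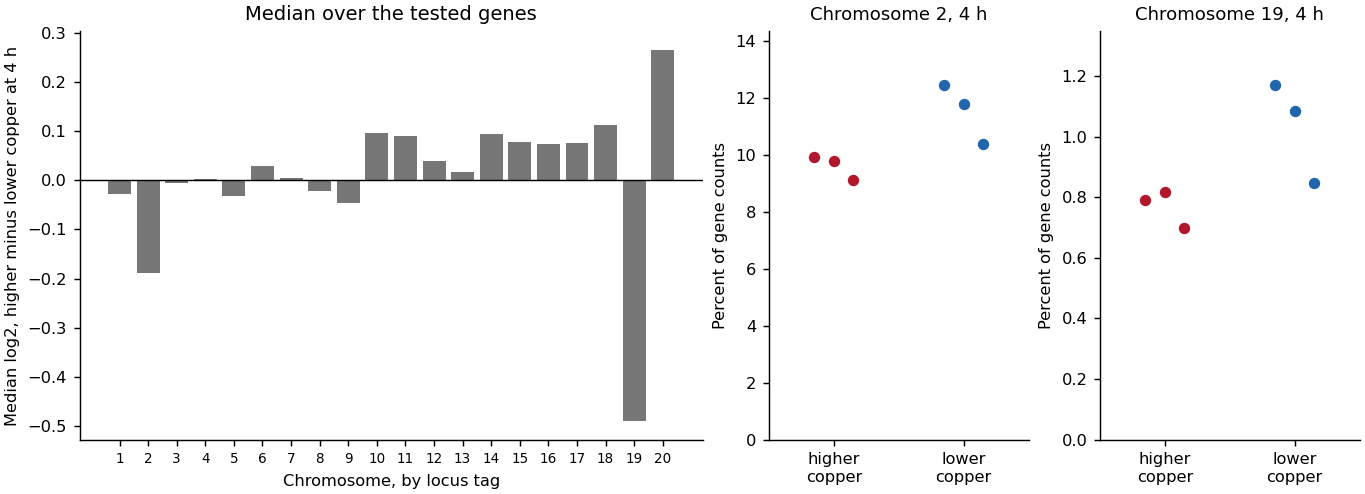
Median log2 difference of higher minus lower copper at 4 h for the genes of each of 20 chromosomes (bars, left), and percent of gene counts on chromosomes 2 and 19 in each 4 h library (points, right), higher copper left of lower copper. Chromosome 19 has the lowest median at −0.49, chromosome 2 follows at −0.19, and the higher copper libraries lie below the lower copper libraries on both chromosomes.

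The comparison at 4 h stands between those at 1 h and 12 h, each with 3 libraries at higher and 3 at lower copper in the same fit. At 1 h 0 genes passed by edgeR, with 239 (3.32%) at an unadjusted p under 0.05, and DESeq2 also called 0. Modules gave 0 by both tools, with 9 (3.81%) at an unadjusted p under 0.05 by edgeR. At 12 h 54 genes passed (0.751%), of which 29 were higher (0.403%) and 25 lower (0.348%), and the count was 22 without lower copper replicate 2 of 12 h or without higher copper replicate 3 of 12 h, and 31 without higher copper replicate 2 of 12 h. The authors' deposited tables call 0 genes at 1 h and 32 at 12 h, 18 higher and 14 lower. In this fit the counts at an unadjusted p were of like size at 4 h and 12 h, 879 (12.2%) and 939 (13.1%) genes.

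Genes that passed at 12 h had the same direction at 4 h in other libraries. All 29 genes that rose at 12 h were higher at 4 h too, with a median of 1.17 at 12 h and 0.51 at 4 h, and 19 of them (65.5%, against 5.12% of all genes) had an unadjusted p under 0.05 at 4 h. All 25 genes that fell at 12 h were lower at 4 h, with medians of −0.96 and −0.47, and 20 of them (80%, against 7.11%) had an unadjusted p under 0.05. The libraries of the 2 times differ, but the fit shares 1 estimate of the spread between them. The sample names number the replicates alike at each time, and do not say whether equal numbers were taken from 1 culture. If they were, the 2 times are not independent, whereas the fit counts all libraries as independent. The medians at 12 h are of genes chosen by that contrast.

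By edgeR no gene or module passed the test of the difference in effect between the times, which does not show that the effects were equal. The contrast of 4 h minus 1 h had 0 genes and 0 modules past an adjusted p of 0.05 by edgeR, with 71 genes (0.987%) and 0 modules below an unadjusted p of 0.05, and DESeq2 called 0 of either. The contrast of 12 h minus 4 h had 0 of either as well, with 124 genes (1.72%) and 4 modules (1.69%) below an unadjusted p of 0.05, and DESeq2 called 2 genes. No order of the times is therefore read from the values by time.

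Photorespiration (M00532) differed by 0.23 ± 0.10 at 1 h, 0.41 ± 0.10 at 4 h and 0.23 ± 0.10 at 12 h. For the C4 acid cycle (M00171) the values were 0.10 ± 0.11, 0.40 ± 0.11 and 0.24 ± 0.11, and for isoleucine synthesis (M00570) 0.13 ± 0.10, 0.34 ± 0.10 and 0.10 ± 0.10. Tocopherol synthesis (M00112) had −0.21 ± 0.15, −0.43 ± 0.15 and −0.44 ± 0.15, and GINS (M00286) −0.28 ± 0.22, −0.62 ± 0.22 and −0.68 ± 0.22. Pantothenate synthesis (M00119) had −0.34 ± 0.20, −0.63 ± 0.20 and −0.40 ± 0.20, and serine synthesis (M00020) −0.071 ± 0.089, −0.27 ± 0.09 and 0.078 ± 0.089.

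The G1/S module (M00692) was the only module that passed at 12 h (0.424%), at 0.77 ± 0.12 with an adjusted p of 0.0030, after 0.23 ± 0.12 at 4 h and −0.032 ± 0.12 at 1 h. Acylglycerol degradation (M00098) had −0.89 ± 0.33 at 1 h, −0.95 ± 0.33 at 4 h and 0.29 ± 0.33 at 12 h. Among the 4 genes, OT_ostta18g01100 had 0.49 ± 0.30 at 1 h, 1.52 ± 0.28 at 4 h and 1.36 ± 0.27 at 12 h, and OT_ostta07g00240 had 0.45 ± 0.38, 1.56 ± 0.35 and 1.76 ± 0.37. Both rose at 12 h, with an adjusted p of 0.0224 and 0.0296. OT_ostta08g01870 fell at 12 h, at −1.46 ± 0.26 (adjusted p = 0.010), after −1.09 ± 0.26 at 4 h. OT_ostta20g00035 had −0.39 ± 0.15 at 12 h with an adjusted p of 0.273. The median over chromosome 19 was −0.14 at 1 h, −0.49 at 4 h and −0.65 at 12 h, and over chromosome 2 it was −0.11, −0.19 and −0.24.

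**Figure D4:**
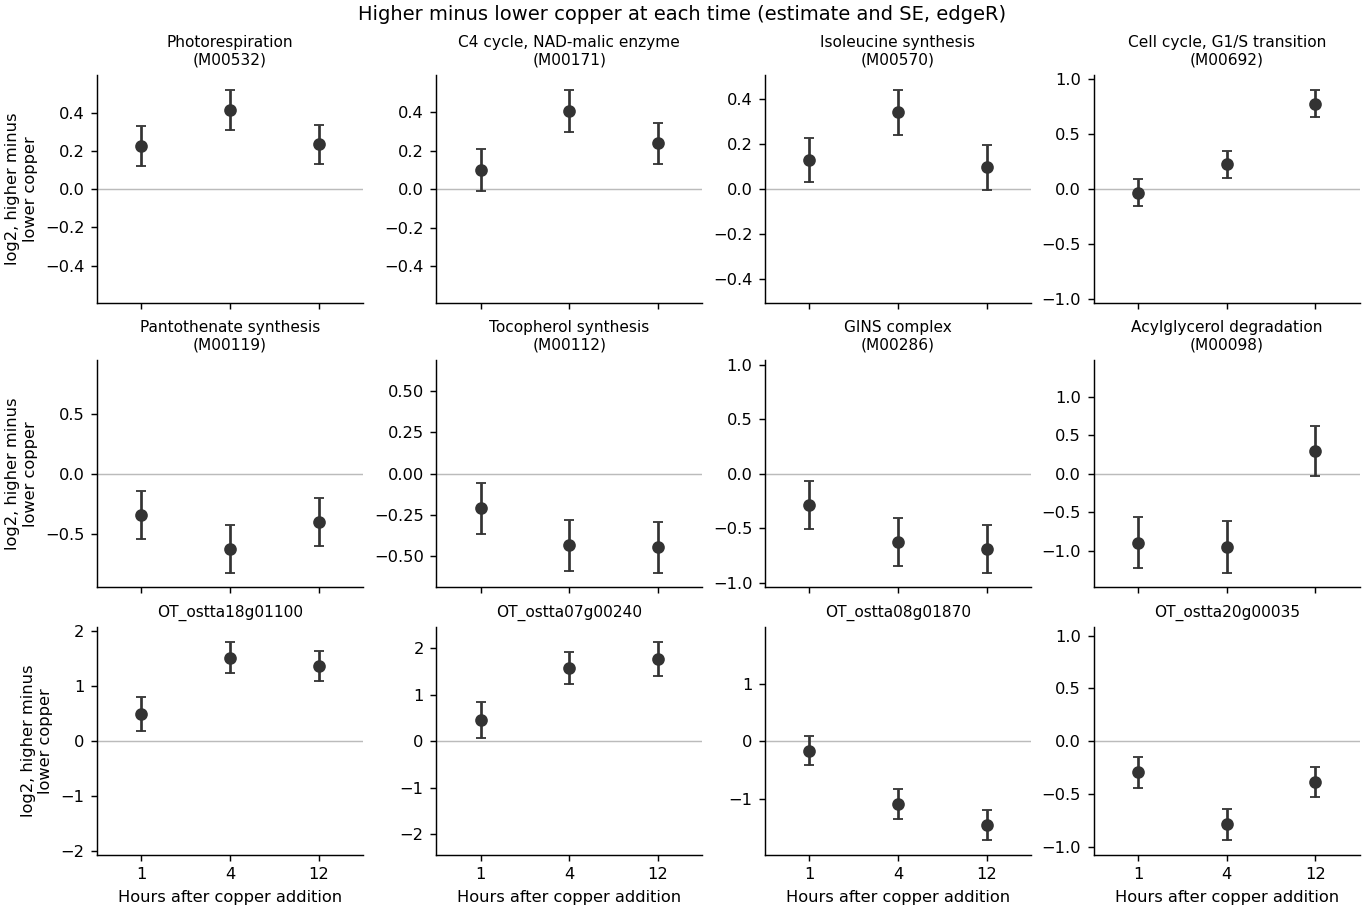
Log2 difference of higher minus lower copper at 1, 4 and 12 h (x axis, h; y axis, log2 with bars of 1 standard error) for 8 modules and 4 genes. At 4 h photorespiration lies at 0.41 and tocopherol synthesis at −0.43, and the G1/S module stands at 0.77 at 12 h.

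Set beside the controls of 4 h, higher copper had the larger fitted difference from them in each module named here. These contrasts come from the fit of all 30 libraries, share the 3 controls and are given side by side only. The modules and genes were picked with their 4 h difference between the copper levels known. A larger distance from the controls at higher copper is therefore in part built in, and the p-values are a description. Each value is also given without the 2 control libraries whose module and gene totals do not match, replicate 3 of 4 h and replicate 3 of 1 h.

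Photorespiration (M00532) rose by 0.68 ± 0.10 at higher copper against control (adjusted p = 9.7e-05, and 0.77 without the 2 controls). It stood at 0.27 ± 0.10 at lower copper (adjusted p = 0.325, and 0.35 without them). The C4 acid cycle (M00171) rose by 0.50 ± 0.10 at higher copper (adjusted p = 0.0012, 0.52 without them) and stood at 0.093 ± 0.10 at lower copper (0.12 without them). Isoleucine synthesis (M00570) rose by 0.70 ± 0.12 at higher copper (adjusted p = 0.00059, 0.86 without them). It stood at 0.36 ± 0.12 at lower copper (adjusted p = 0.302), a value that passed without the 2 controls at 0.52 (adjusted p = 0.0381).

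Pantothenate synthesis (M00119) fell at higher copper, at −0.78 ± 0.17 (adjusted p = 0.0034, −0.78 without the 2 controls), and was at −0.15 ± 0.17 at lower copper (−0.15 without them). Serine synthesis (M00020) fell at higher copper, at −0.39 ± 0.075 (adjusted p = 0.0012, −0.39 without them), and was at −0.12 ± 0.075 at lower copper (−0.12 without them). Glutathione synthesis (M00118) fell at higher copper as well, at −0.75 ± 0.18 (adjusted p = 0.0051, −0.83 without them), and was at −0.55 ± 0.17 at lower copper (adjusted p = 0.269, −0.63 without them).

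Tocopherol synthesis (M00112), at −0.49 ± 0.14, and GINS (M00286), at −0.60 ± 0.19, passed at higher copper with an adjusted p of 0.0232 and 0.0471. They no longer did so without the 2 controls, at −0.40 and −0.55 with an adjusted p of 0.174 and 0.174. Other single libraries mattered as well. Tocopherol synthesis had an adjusted p of 0.081 without higher copper replicate 1 and 0.162 without higher copper replicate 3. For GINS these values were 0.112 and 0.205. GINS also failed without control replicate 1 (0.083), control replicate 2 (0.074) or lower copper replicate 2 (0.058) of 4 h. At lower copper tocopherol synthesis was at −0.054 ± 0.14 (0.035 without them) and GINS at 0.022 ± 0.19 (0.076 without them). Acylglycerol degradation (M00098) fell at higher copper, at −1.25 ± 0.30 (adjusted p = 0.0064, −1.47 without the 2 controls). Without higher copper replicate 1 its adjusted p was 0.0551. At lower copper M00098 was at −0.30 ± 0.30 (−0.52 without the 2 controls). Among genes, OT_ostta18g01100 rose by 2.33 ± 0.28 at higher copper (adjusted p = 1.6e-05, 2.44 without the 2 controls) and stood at 0.82 ± 0.30 at lower copper (0.92 without them). OT_ostta20g00035 fell at higher copper, at −0.95 ± 0.14 (adjusted p = 5.9e-05, −0.91 without them), against −0.16 ± 0.13 at lower copper (−0.12 without them). OT_ostta07g00240 rose by 2.05 ± 0.32 at higher copper (adjusted p = 0.00015, 2.18 without them) and stood at 0.49 ± 0.34 at lower copper (0.61 without them). OT_ostta08g01870 did not pass at higher copper, at −0.69 ± 0.24 (adjusted p = 0.0713, −0.70 without them), and was at 0.40 ± 0.23 at lower copper (0.39 without them).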

How the data were processed

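Polyadenylated RNA of 30 Ostreococcus tauri RCC745 libraries (10 groups of 3) was sequenced as single 50-nt reads from a stranded kit, per the labels' protocols. The deposited tables hold raw read counts per gene and raw counts per KEGG module (from a homology search, per the labels), not normalized by the authors. The sources used here do not name the aligner, counter, strand setting or build, so reads of overlapping, antisense or near-identical genes may be shared. The tables of the authors' own tests, as deposited, list log2 fold changes with standard errors, a test score, and p-values before and after adjustment, per the file headers. DESeq2 appears in the submitters' processing notes with no version.

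In R 4.3.3 with edgeR 4.0.16 and limma 3.58.1 (contrasts), filterByExpr kept 7190 of 7627 genes, and 437 were left out. A line without a gene name (0.00038% of counts) was dropped. Libraries were scaled by TMM over all 30. The quasi-likelihood test was fitted on the 18 copper libraries (6 group means, 12 residual degrees of freedom), and p-values were adjusted by Benjamini-Hochberg over all genes or all 236 modules and called under 0.05. Modules were not filtered. Standard errors are the log2 difference over the square root of F. The fit of 30 libraries has 20 residual degrees of freedom. Principal components used log2 CPM with a prior count of 2. DESeq2 1.42.0 was an alternative. The code was tested on simulated data.

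Members, lists and tests were chosen with earlier results of these data known. The rule for named genes took called genes whose groups did not overlap and whose log2 CPM averaged 1 or more, at most 2 per direction where no function is given, and 0 genes met it. For modules it took up to 4 of the highest level per list that did not pass, 59 in all, and 51 more were named after their values were seen. RefSeq symbols come from the table of the organism's genes, and chromosome numbers from the locus tags.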

Additional observations from a re-analysis of the deposited data

How the results depend on the processing

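By edgeR, no gene or module passed for higher against lower copper at 4 h under DESeq2 size factors, in the 6 libraries alone or under another filter on low counts, and no module under library sizes of the gene table. DESeq2 called no module on the 18 copper libraries. Genes called at 4 h numbered 51 by DESeq2 on the 18 copper libraries, 12 in the fit of 30 libraries and 259 by DESeq2 on the 6 libraries. Modules called at 4 h numbered 2 in the fit of 30 libraries and 33 by DESeq2 on the 6 libraries, where 67 had an unadjusted p under 0.05. In the 6 libraries alone, edgeR found 1461 genes and 52 modules below an unadjusted p of 0.05. When the first component of the replicate deviations was a covariate, 1341 genes and 58 modules were called at 4 h, 2333 genes and 85 modules had an unadjusted p under 0.05, 1467 genes and 73 modules were called at 12 h, and 2 genes for 12 h minus 4 h. The DESeq2 fit of 6 libraries and the covariate were chosen after seeing the data. At 12 h DESeq2 called 136 genes and the fit of 30 libraries 121 genes and 2 modules. DESeq2 called 2 genes for 12 h minus 4 h. The cause of these differences was not tested.

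With the replicate number as a block, 23 genes and 4 modules (M00171, M00424, M00532 and M00677) were called at 4 h, 50 modules had an unadjusted p under 0.05, and 127 genes and 3 modules were called at 12 h. Deviations of same-numbered libraries correlated by 0.32, 0.076 and 0.65 over genes, and those of libraries with unlike numbers by −0.48 to 0.36. The main fit did not take the number as a pairing, and these values do not settle whether it marks one. Lower copper replicate 2 correlated best with higher copper replicate 1 (0.36), and both replicates 3 with each other.

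Leaving out each of the 18 libraries in turn gave 0 to 5 genes and 0 to 2 modules at 4 h, 352 to 1223 genes and 14 to 42 modules below an unadjusted p of 0.05, 22 to 72 genes at 12 h and 0 to 1 module at 1 h. The 5 genes arose without lower copper replicate 1 of 12 h and the 2 modules without higher copper replicate 1 of 1 h. No named value with a call reversed. Differences near 0 changed sign in single settings, among them photosystem I.

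Depth was 3425807 to 5129440 gene counts per library. The median standard error for a gene was 0.24, and log2 differences several times that size did not pass, among them OT_ostta07g00240 at 1.56 ± 0.35 and OT_ostta08g01870 at −1.09 ± 0.26. The controls enter only the contrasts against them.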

Other observations

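Of the 236 modules, 76 belonged to no list, and 10 of these lay higher and 5 lower at an unadjusted p under 0.05 by edgeR's test at 4 h, with 0 past the adjustment. They were chosen after their values were seen. The GABA shunt (M00027), a bypass of the citrate cycle that plants use under stress, had 1028, 1014 and 1157 CPM at higher copper and 885, 873 and 847 CPM at lower copper, at 0.30 ± 0.11 on the log2 scale. Methionine salvage (M00034), which recycles the sulfur compound left by polyamine and ethylene synthesis, had 8877, 7978 and 7542 CPM at higher copper and 9159.8, 9986 and 9965 CPM at lower copper, at −0.25 ± 0.094. The 3 libraries of a group did not overlap with those of the other in either module, although methionine synthesis lay above at higher copper.

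The Tat system (M00336), which carries folded proteins into thylakoids, had 681, 691 and 797 CPM at higher copper and 586, 508 and 619.9 CPM at lower copper, at 0.34 ± 0.15. The module of prokaryotic aminoacyl-tRNA synthesis (M00360) had 316, 424 and 583 CPM at higher copper and 205, 224 and 295 CPM at lower copper, at 0.87 ± 0.31. On the lower side the module named for Wnt signaling (M00677) had 1481, 1568 and 1222 CPM at higher copper and 2568, 2542 and 1666 CPM at lower copper, at −0.67 ± 0.20, and the one named for the telomere complex shelterin (M00424) had 187, 165 and 129 CPM at higher copper and 257, 244 and 205 CPM at lower copper, at −0.55 ± 0.19. Both names come from animals and stand here for algal gene families with sequence homology, whose roles in this alga the tables do not give. The differences of thiosulfate oxidation (M00595) at 0.44 ± 0.15 and pectin degradation (M00081) at 0.61 ± 0.24 rest on homology in the same way.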
